A study of Mus musculus with 2 samples.

Results

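Described here are 10 genes of the myostatin, Gdf11 and activin pathway in mouse skeletal muscle: the ligand genes Mstn, Gdf11, Inha and Inhba, the inhibitors Fst and Fstl3, the receptor Acvr2b, and the signal carriers and brake Smad2, Smad3 and Smad7. They were chosen by name for their roles in this pathway, and are 10 of 27466 named genes on the array, read by 11 of its 55672 probes. The data are from tibialis anterior, the fast muscle at the front of the shin, from adult male mice on a C57BL/6 background. The control group is 1 mouse labelled only as control, and the other group is 1 mouse of the line N2ICD-mTG, whose transgene encodes N2ICD, an active form of Notch2 that consists of the intracellular domain of this receptor. The promoter that drives the transgene, the number of lines and the exact ages are not given in the sources used here. Each RNA was put on 1 array with 1 dye, so no difference below has a replicate check and no p-value was computed. Genotype, animal, dissection and array cannot be told apart.

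Myostatin and Gdf11 are closely related secreted ligands of the TGF-beta family, cut from larger precursors. With the activins, which are built from inhibin beta subunits, they bind the activin type II receptors, and these recruit a type I receptor that phosphorylates the transcription factors Smad2 and Smad3. Follistatin (Fst) and follistatin-like 3 (Fstl3) trap the ligands outside the cell, inhibin alpha (Inha) pairs with a beta subunit to form inhibin in place of activin, and Smad7 blocks the receptors from within. In muscle the pathway is known as a brake on fibre growth, and mice without Mstn have greatly enlarged muscles.

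The results turn on 2 probes, one for Gdf11 and one for Inha, and their sequences are shown as the array design gives them. On the mouse build mm9 the Gdf11 probe lies on the minus strand at chr10:128322284-128322343, at position 1069 of the transcript. The Inha probe lies on the plus strand at chr1:75506675-75506734, at position 1208 of its transcript. Both hold coding sequence of the mature chain, which for Gdf11 is the part most alike to Mstn. The exon was not worked out here. They are written in lower case throughout because no base in them is singled out.
Gdf11 probe: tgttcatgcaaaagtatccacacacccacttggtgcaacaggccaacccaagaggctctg
Inha probe: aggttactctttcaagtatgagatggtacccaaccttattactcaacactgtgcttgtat

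The promoters of Gdf11 and Mstn are shown because these 2 related ligands had the largest bound and the largest measured difference among the members toward N2ICD. Each run is the 250 bases before the gene's start, from RefSeq on assembly GRCm38.p6, at chr10:128891719-128891968 on the minus strand for Gdf11 and chr1:53061390-53061639 on the plus strand for Mstn. Capitals mark matches to the E-box CANNTG, the general letters of basic helix-loop-helix binding, and to the TATA box letters TATAAA, searched on both strands. No marked matches overlap.
Gdf11 promoter: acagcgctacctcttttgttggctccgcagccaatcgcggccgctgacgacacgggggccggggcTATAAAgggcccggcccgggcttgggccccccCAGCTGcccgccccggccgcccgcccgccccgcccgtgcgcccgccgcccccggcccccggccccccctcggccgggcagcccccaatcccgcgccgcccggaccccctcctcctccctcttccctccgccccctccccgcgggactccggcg
Mstn promoter: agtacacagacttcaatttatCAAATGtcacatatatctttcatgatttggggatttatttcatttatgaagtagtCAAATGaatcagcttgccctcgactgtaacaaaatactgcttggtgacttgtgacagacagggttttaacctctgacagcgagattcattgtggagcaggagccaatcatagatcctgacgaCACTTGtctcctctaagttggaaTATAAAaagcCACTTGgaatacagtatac

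The Gdf11 run has a GC content of 81.2% with 1 E-box, and the Mstn run one of 38.4% with 4 E-boxes. Each holds 1 TATAAA, which 12.4% of all 32851 RefSeq promoters of that length hold, and an E-box stands in 66.2% of them. The core letters TGGGAA, known for binding RBPJ, the DNA-binding partner of the Notch intracellular domain, were in neither run. Of the 7 members with a promoter entry, TGGGAA stood in Fstl3, Inha and Smad3, against 21.6% of all promoters. The SMAD core letters CAGAC stood in Acvr2b, Fstl3, Inha and Mstn, against 42.2% of all promoters. A match is a description of letters in this window, not a bound site.

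Signals are the scanner's background-subtracted intensities, given with the scanner's own error for 1 spot. A difference is the log2 signal minus the array's 75th percentile, N2ICD minus control. The 75th percentile signal was 169 for control and 190 for N2ICD, so a fold is somewhat smaller than the ratio of signals where N2ICD is brighter. A probe counts as measured where the scanner called it well above background, and a gene measured on 1 array alone gets a bound. The bound divides its level by that of the dim spot, or by the lowest level called well above background on that array if this is higher. A change of at least 2-fold is used as a size rule, in place of a test. Spot noise is the SD of the difference between repeated spots of 1 probe, 0.25 in the dimmest and 0.05 in the brightest of 4 level groups, and holds no spread between animals.

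Of the 10 genes, Gdf11 was over 2-fold higher in N2ICD muscle and Inha over 2-fold lower. Another 7 lay within 2-fold, and Inhba was not measured on either array. Over all 14633 genes measured or given a bound, 1.63% were 2-fold higher and 1.25% were 2-fold lower. The 8 members measured on both arrays were 4 above and 4 below 0, with a median difference of 0.02, beside 0.01 over all 13662 such genes. The larger differences were those of Gdf11, Inha, Mstn, Smad3 and Smad7, and the trapping inhibitors, the receptor and Smad2 lay near 0. Because whole muscle was used, fewer cells of a type and less RNA per cell cannot be told apart.

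**Figure D1:**
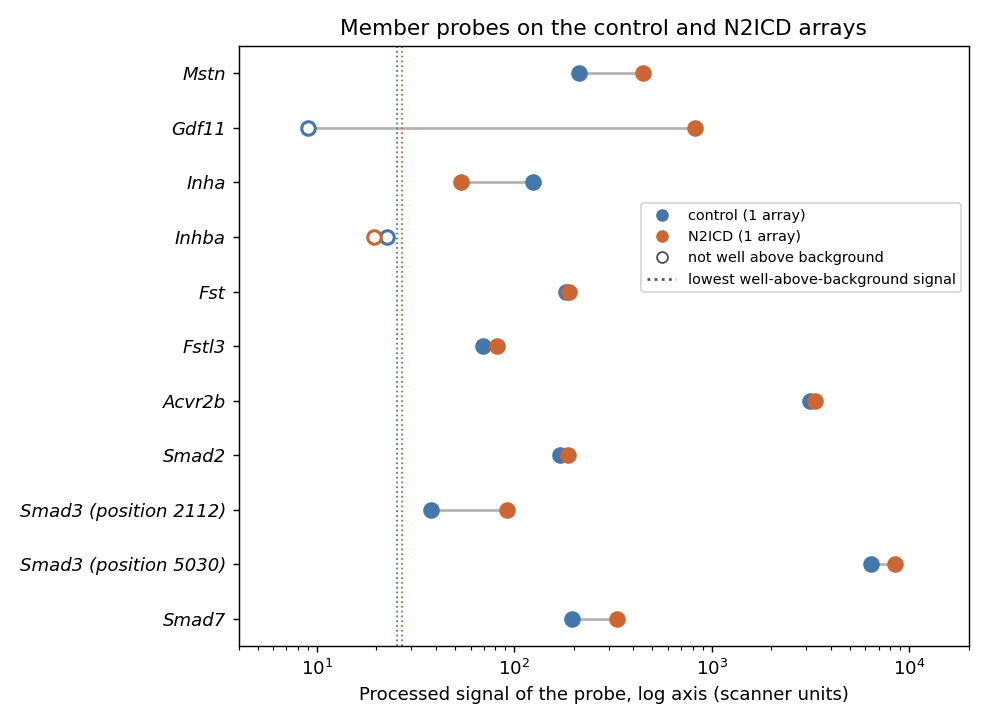
Processed signal of each of the 11 probes in control (blue) and N2ICD (orange), on a log axis in scanner units, with open circles for values not well above background and dotted lines at the lowest signal called well above background on each array (25.4 and 27.1). Gdf11 spans from 8.98 to 827, Inha is the one filled pair with the control array clearly to the right, and Inhba is open on both arrays.

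Gdf11, the ligand that also patterns the axial skeleton of the embryo, had a signal of 8.98 ± 5.27 in the control muscle and 827 ± 82.9 in the N2ICD muscle. The control spot was not well above background, and the lowest signal called well above background there was 25.4. With the scanner's background subtraction, Gdf11 was thus at least 28.9-fold higher in N2ICD, or 4.85 as a lower bound of the log2 difference. With normexp, another way to remove background, the bound was 3.26, or at least 9.60-fold. This was the largest bound among the 492 genes measured on the N2ICD array alone, of which 9.15% had a bound past 2-fold. No gene measured on both arrays had a difference above it. The genes with the next largest bounds were Mat1a, an enzyme that makes S-adenosylmethionine, at least 14.9-fold higher with signals of 5.04 and 427, and Efcab12, at least 6.02-fold higher with signals of 20.2 and 173. Likeness here is size alone, over 2 arrays.

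The Gdf11 value rests on 1 probe and 1 spot per array, so the spot itself was examined. On the N2ICD array its 43 pixels had a median of 989 and a mean of 1012, with a coefficient of variation of 10.9%. On the control array its 47 pixels had a median of 102 over a local background of 63.0, against a local background of 58.0 on the N2ICD array. The 308 negative control spots of the N2ICD array had a median signal of 6.12 and reached 14.8, and 0 of them came to the Gdf11 signal. The 12 spots printed around it had local backgrounds of 55.0 to 59.0 on that array, and the 5 of them measured on both arrays ran from -1.14 to 0.18. The brightest signal among those 12 spots was 10689 in control and 13636 in N2ICD, so a far brighter spot stood beside it on both arrays. Whether the slide contributed to the Gdf11 signal was not tested.

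Genes beside Gdf11 on chromosome 10 did not share its difference. All 6 other probes within 50 kb were measured on both arrays, from -0.07 to 0.37 with a median of 0.07, and 0 passed 2-fold. The nearest, the RNA-export gene Sarnp at -7.7 kb (a minus marks lower coordinates), had signals of 789 and 1070, a difference of 0.27. Cd63, a tetraspanin of late endosomes, was the highest at 0.37.

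Mstn, the ligand that limits muscle size, gave 213 ± 22.2 in control and 446 ± 45.1 in N2ICD as its signals. This is 1.86-fold higher, a difference of 0.90 that is 6.90 times the spot noise of 0.13 at its level and stays short of 2-fold. It ranked 254 of 13662 genes measured on both arrays. Of the same genes, 1.42% were at least 2-fold higher. The Mstn probe lies on the plus strand at chr1:53124482-53124541, at position 2240 of the transcript. The Gdf11 and Mstn transcripts are alike in the part that codes for the mature ligand, and binding of one transcript to the other's probe was not tested. On the control array the Mstn probe was well above background and the Gdf11 probe was not.

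Inha was the member in the other direction, with signals of 124 ± 13.6 for control and 53.8 ± 7.96 for N2ICD. This is 2.60-fold lower, a difference of -1.38 that is 5.45 times the spot noise of 0.25 at its low level, and it ranked 35 of 13662 on the lower side. Of those 13662 genes, 0.893% were at least 2-fold lower. With normexp background correction, which here adds an offset of 50 to each signal, its difference was -0.73, or 1.65-fold lower. On a scale set by spike-in probes its difference was -0.85, so the 2-fold call depends on the processing. The 5 spots beside it that were measured on both arrays ran from -0.35 to 0.49.

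The neighbours of Inha on chromosome 1 lay mostly on the same side. Of 11 probes within 50 kb, 7 were measured on both arrays, from -1.04 to 0.02 with a median of -0.24. Obsl1, a cytoskeletal adaptor gene of the sarcomere, had 2 of them, and the probe at -23.8 kb had signals of 3441 and 1885, 2.06-fold lower, and the probe at -12.4 kb differed by -0.69. Stk11ip, which binds the kinase Stk11, was at -0.60. Chpf was at -0.20, the Slc4a3 probes at -0.24 and 0.02, and 1 Tmem198 probe at 0.01.

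**Figure D2:**
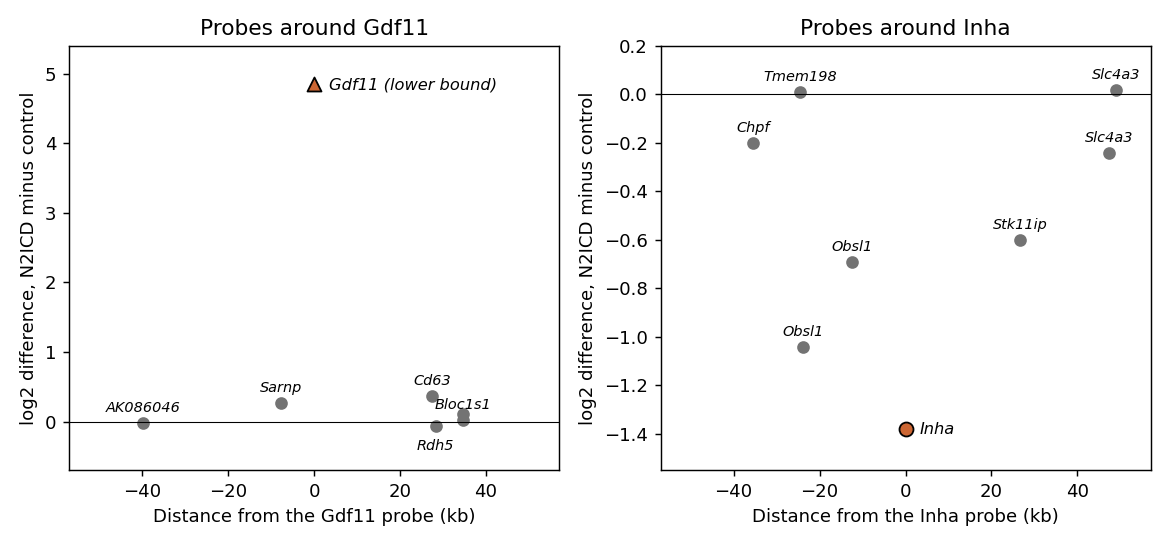
Log2 difference, N2ICD minus control, of each other probe measured on both arrays within 50 kb of the Gdf11 probe (left) and the Inha probe (right), against distance in kb; the triangle is the Gdf11 lower bound. The 6 probes around Gdf11 stay between -0.07 and 0.37, and those around Inha reach down to -1.04 at Obsl1.

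Inhba, the beta A subunit that makes activin A, had signals of 22.5 ± 5.91 and 19.4 ± 6.16, not well above background on either array. Its level was therefore not detectable here, and no fold is given. Its probe lies on the plus strand at chr13:16118634-16118693.

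The inhibitors that trap the ligands differed little. Fst, on the minus strand at chr13:115243565-115243624, had signals of 183 ± 19.1 and 190 ± 19.9, a difference of -0.12 that is 0.935 times its spot noise. Fstl3, on the plus strand at chr10:79244916-79244975, had signals of 69.0 ± 9.49 and 81.6 ± 10.6, a difference of 0.07 that is 0.283 times its spot noise. Both values lie within the noise of repeated spots.

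Acvr2b, the type II receptor that binds Mstn and Gdf11, had signals of 3151 ± 315 and 3328 ± 333, at chr9:119342560-119342619 on the plus strand. Its difference of -0.09 is 1.72 times the small spot noise of 0.05 at that level. The receptor was thus within 1.07-fold of control.

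Among the SMADs, the receptor-regulated Smad2 had signals of 171 ± 17.8 and 188 ± 19.6, a difference of -0.03 that is 0.255 times its spot noise. Smad3, its partner, was read by 2 probes that gave different sizes. The probe at position 2112 (chr9:63497492-63497551) had signals of 37.7 ± 6.48 and 91.2 ± 10.7 and was 2.15-fold higher in N2ICD. The probe at position 5030 (chr9:63494574-63494633), farther toward the 3′ end, had signals of 6402 ± 640 and 8500 ± 850 and was 1.18-fold higher. Both are on the minus strand, and the differences are 4.37 and 4.36 times the spot noise at their levels. Their mean gave Smad3 a difference of 0.67, or 1.59-fold, whereas the brighter probe alone gave 0.24. The SD between probes of 1 gene was 0.25 over 3158 genes.

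Smad7, the inhibitory SMAD that TGF-beta signalling itself induces, had signals of 196 ± 20.5 and 333 ± 33.9. It was 1.51-fold higher, a difference of 0.59 that is 4.57 times its spot noise of 0.13. Smad3 ranked 510 and Smad7 676 of 13662 genes on the higher side.

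**Figure D3:**
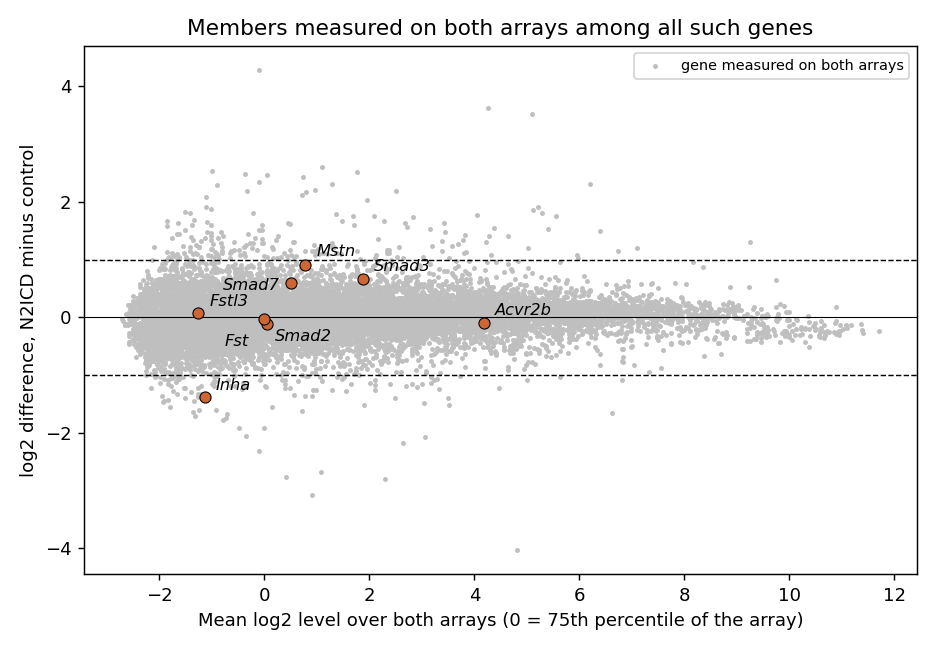
Log2 difference, N2ICD minus control, against mean log2 level (0 is the 75th percentile of the array) for all 13662 genes measured on both arrays (grey) and the 8 members among them (orange), with dashed lines at 2-fold. Inha lies below the lower line at -1.38, Mstn just under the upper line at 0.90, and Fst, Fstl3, Acvr2b and Smad2 near 0.

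In the authors' deposited table, 10 of the 11 probes were listed, with an unsigned fold and a direction each. In that table Gdf11 stood at 82.6-fold up, with the control array flagged as not detected. That fold is close to the 81.7-fold found here with the dim spot's own value, and how it was computed is not stated in the sources used. The bound of 28.9 uses the lowest level called well above background instead. In the authors' deposited table Inha was 2.57-fold down, Mstn 1.88-fold up, Smad7 1.52-fold up and the Smad3 probes 2.17-fold and 1.19-fold up. Inhba was the probe without an entry there.

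Across 10 other ways of processing, Gdf11, Mstn, Inha, Smad3 and Smad7 kept their sign. Mstn ran from 0.71 to 1.42, Smad3 from 0.24 to 1.19 and Smad7 from 0.46 to 1.12. Fst, Acvr2b and Smad2, which are below 0 here, stood at 0.40, 0.43 and 0.49 on a scale set by 7 spike-in probes. That scale moved the median of all genes to 0.53, so relative to it these 3 genes were again below the median gene. Smad2 was also above 0 with median scaling, at 0.04, so its sign depends on the scaling.

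**Figure D4:**
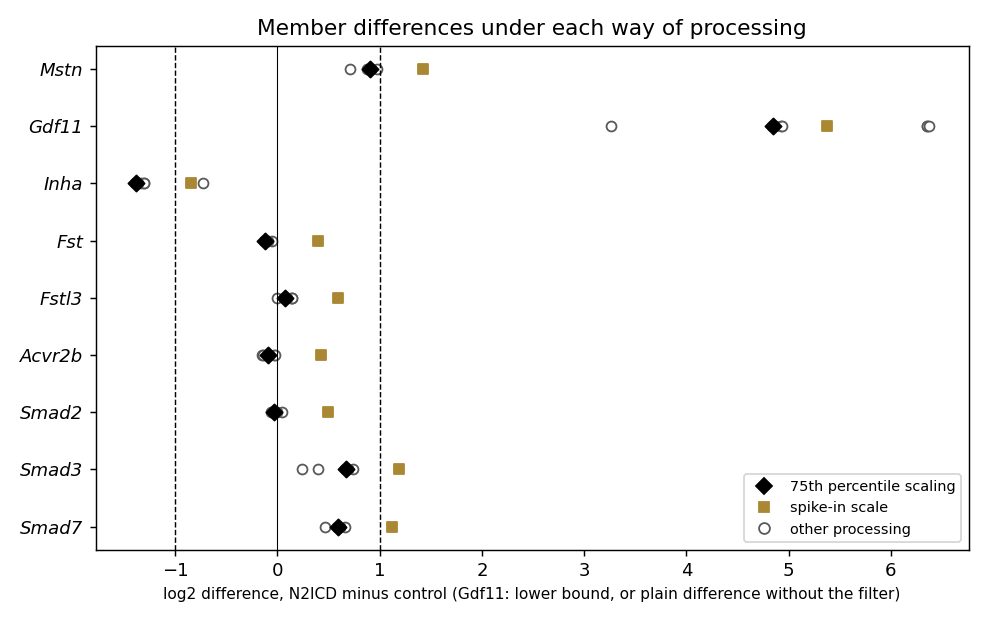
Log2 difference, N2ICD minus control, of the 9 members with a value, with 75th percentile scaling (black diamonds), on the spike-in scale (squares) and under the other ways of processing (open circles); dashed lines mark 2-fold. For Gdf11 the value is a lower bound, the plain difference where dim probes were kept, or the authors' deposited fold, and it runs from 3.26 to 6.37. Inha runs from -1.39 to -0.73.

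The rest of the pathway was described with lists of other genes ordered by role, without the 10 members. Among these lists is the bone morphogenetic protein (BMP) arm with 22 genes, described at the end. Of the 75 genes of all these lists, 62 were measured on both arrays, 3 on 1 array and 10 on neither. At least 2-fold higher were 2 of the 65 with a value or bound, 3.08% against 1.63% of all genes, and 0 were 2-fold lower, against 1.25% of all genes. Of the 62, 34 were above and 28 below 0, with a median of 0.06, beside 50.7% of all genes above 0 and a median of 0.01. The lists hold few genes past 2-fold, and the 2 are Pmepa1 of the SMAD list and Bmpr1b, a type I BMP receptor that was 1.60-fold higher, within 2-fold, with normexp.

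Of 10 other activin and TGF-beta ligand genes, 8 were measured, 4 above and 4 below 0, and 0 passed 2-fold. Nodal, known for patterning the early embryo, had signals of 37.6 and 66.4, a difference of 0.65 at a spot noise of 0.25. Inhbe, an activin subunit of the liver, was at -0.53, Tgfb2 at 0.34 and Tgfb3 at 0.25. Inhbc and Gdf15 were measured on neither array.

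Of 8 receptors and co-receptors, 7 were measured and 0 passed 2-fold, with a median of -0.09. Acvr2a, the other activin type II receptor, had signals of 83.0 and 141, a difference of 0.59, on its one measured probe. Tgfbr1, the type I receptor of TGF-beta that Gdf11 and Mstn can also use, had signals of 264 and 426, a difference of 0.52, and 3 more probes of it were not well above background. Acvr1b, the main activin type I receptor, was at -0.36. The probes of Tgfbr2 differed in sign, at -0.56 and 0.15.

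Extracellular inhibitors and binders were above 0 in 6 of 7 measured genes, with a median of 0.09 and 0 past 2-fold. Ltbp3, which holds latent TGF-beta in the matrix, was the highest at 0.67, with probes at 0.79 and 0.54. Wfikkn2, which binds Mstn and Gdf11, was at 0.28 with probes at 0.30 and 0.27. Tcap, a sarcomere protein that also binds Mstn, was at 0.17, and Dcn, a matrix proteoglycan, at -0.23. Its relative Wfikkn1 was measured on neither array.

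Proteases that cut the ligand precursors or release them had a median of -0.14 over 5 measured genes. Pcolce, an enhancer of tolloid proteases, was at -0.37, Bmp1, a tolloid protease, at -0.26, and the proprotein convertases Pcsk5 and Pcsk6 at 0.30 and -0.14. Another Pcsk5 probe was not well above background, and without a filter Pcsk5 was at -0.22. The probes of Bmp1 differed in size, at -0.11, -0.61 and -0.06. Tll1, a relative of Bmp1, was measured in control alone, with signals of 46.3 and 17.3 and a bound of 1.92-fold lower. Of the 479 genes measured in control alone, 12.7% had a bound past 2-fold.

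SMAD partners and inhibitors were above 0 in 8 of 11 measured genes, with a median of 0.13, and 1 passed 2-fold. Pmepa1, which keeps Smad2 and Smad3 from their receptor and is induced by TGF-beta, had signals of 475 and 1106 on one probe and 723 and 1970 on another. These probes were 2.07-fold and 2.42-fold higher, and they overlap, at positions 4467 and 4471, so they are not separate readings of the transcript. The corepressors Tgif2, Tgif1 and Skil were at 0.76, 0.68 and 0.58. Tgif2 rests on 1 dim probe with signals of 44.3 and 84.3, at a spot noise of 0.25. Its other probes were not well above background, and with normexp Tgif2 was at 0.24. Skil was read by 8 spots of 1 probe with mean signals of 282 and 473. Another Skil probe, with signals of 31.8 and 34.6, was well above background in N2ICD alone. With that probe kept, Skil was at 0.26. Other restraining genes of the list were nearer 0, with the corepressor Ski at 0.23, the ubiquitin ligases Nedd4l, Smurf2 and Smurf1 at 0.10, 0.07 and -0.10, and the inhibitory Smad6 at -0.20.

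Of 7 genes known to respond to TGF-beta, 4 were above and 3 below 0, with a median of 0.07 and 0 past 2-fold. Ccn2, a matricellular growth factor, had signals of 1609 and 2542, a difference of 0.49. The cell cycle inhibitor Cdkn1a had signals of 204 and 325, a difference of 0.50, on 1 measured probe. Its other probes were not well above background, and without a filter Cdkn1a was at 0.10. Its relative Cdkn2b was at -0.33, also on 1 measured probe. Ltbp2, a matrix protein, was at -0.51 with signals of 166 and 132. The response list therefore holds values on both sides of 0.

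**Figure D5:**
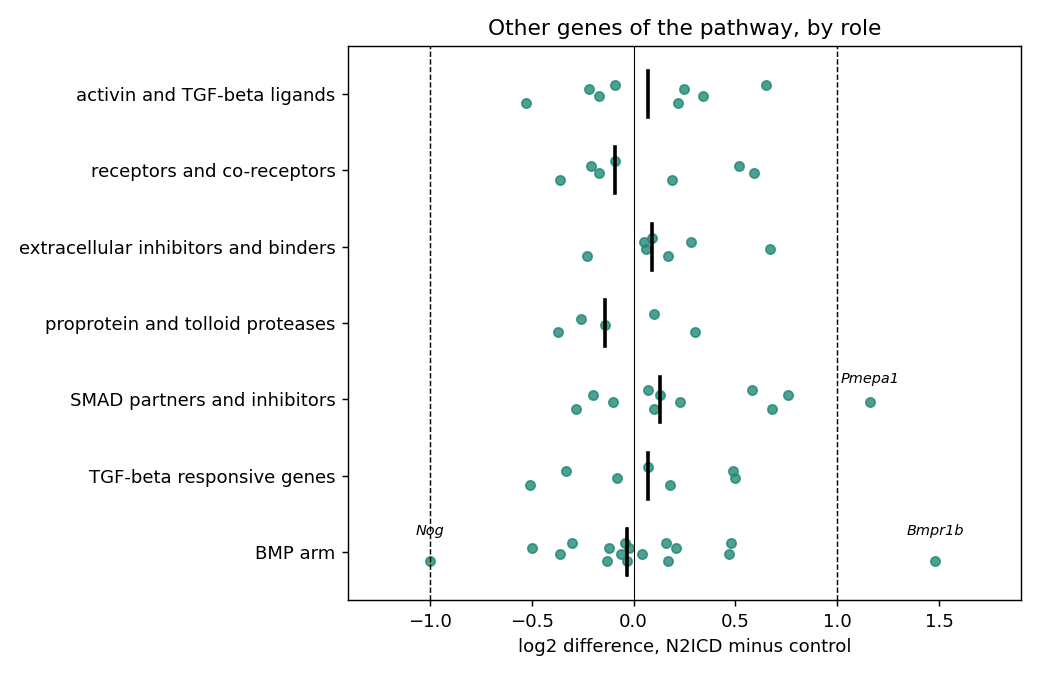
Log2 difference, N2ICD minus control, of each other pathway gene measured on both arrays, 1 row per list, with the list's median as a black bar and dashed lines at 2-fold. Pmepa1 (1.16) and Bmpr1b (1.48) lie past the upper line, Nog on the lower one, and every list median is between -0.14 and 0.13.

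The arrays held 59305 spots that were no controls, of which 24916 were well above background in control and 24982 in N2ICD, and 0 were saturated; both arrays were on 1 slide. The transgene's gene, Notch2, was read by a probe at position 7448 with signals of 6.01 and 221, at least 7.72-fold higher in N2ICD. Its probe at position 10129 had 189 and 179. The Notch targets Hes1 and Heyl were 5.59-fold and 1.61-fold higher. Muscle fibre markers were measured in 10 of 10 genes with a median of -0.19, and their summed scaled level was 13103 in control and 11936 in N2ICD. One of them, the fast myosin heavy chain Myh2, was 2.47-fold higher, with signals of 65700 and 182477. Satellite cell markers were measured in 5 of 7 genes, 5 above 0 with a median of 0.73, with a summed level of 62.0 and 160 that is mostly Itga7 (8493 and 26853), an integrin that fibres also make. Itga7 was at 1.49, Sdc4 at 0.86, Cdh15 at 0.73 (1785 and 3324), Chrdl2 at 0.53 and Pax7 at 0.14. Myf5 and Calcr were not well above background. The medians were -0.11 for fibroblast (8 of 8 measured), -0.12 for tendon (5 of 6), -0.34 for endothelial (6 of 6), -0.42 for macrophage (5 of 6), 0.26 for Schwann cell (5 of 6) and 0.15 for adipocyte markers (4 of 5). Neuron markers were measured in 2 of 6 genes, with Rbfox3, Syt1 and Nefl not measured. The part of cell makeup in the Gdf11, Mstn and Inha values was not tested.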

How the data were processed

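Total RNA of 1 control and 1 N2ICD muscle was labelled with Cy3 and hybridised to 1 array each. The authors read each array with Agilent Feature Extraction (version 10.10.1.1 in the file headers), which gave background-subtracted spot intensity values that were not yet normalized between arrays. The file headers place the probes on mm9. A fold (ratio) without a sign, an intensity per array and a scaled log2 value per array make up the authors' deposited table, and no source used here says how it was made.

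From the scanner files, 215 spots called outliers and all control spots were left out, and log2 processed signals were reduced by each array's 75th percentile over the 59305 non-control spots. Spots of 1 probe were averaged, and a gene's value averages those of its probes that passed the background call on both arrays. Accessions of 31146 spots were named through a RefSeq table of GRCm38.p6, used for names and promoters alone, and the other spots kept the name in the files. No test was possible, since each group has 1 array, and the number of arrays limits the precision. Genes were counted at 2-fold.

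All 10 members were named. From each other pathway list up to 4 measured genes with the largest absolute difference were named, with any gene past 2-fold, the 2 next largest bounds, and neighbours within 50 kb; Tll1, Ski, Nedd4l, Smurf1, Smurf2, Smad6, Myh2 and the satellite cell markers were named after their values were seen. The members, lists and rules were chosen with earlier results of these data known. In the list of TGF-beta responsive genes 1 gene is not reported here and was left out of the list counts. The alternatives were normexp (offset 50), median scaling, a 75th percentile over detected spots only, a spike-in scale, quantile normalization, loess, keeping probes detected on 1 array, keeping all probes, taking each gene's brightest probe, the deposited fold table, and thresholds of 1.5-fold and 4-fold. The steps were tested on simulated data. R 4.3.3 with limma 3.58.1 was used for the alternatives, and Python 3.11.15 with pandas 2.3.3, numpy 2.4.6 and matplotlib 3.10.9 for the rest.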

Additional observations from a re-analysis of the deposited data

How the results depend on the processing

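The Gdf11 bound of 4.85 (28.9-fold) was 3.26 (9.60-fold) with normexp background correction and 5.37 (41.4-fold) on the spike-in scale. Where the dim control spot was used as it stands, with the looser filter and without a filter, it was 6.35 (81.7-fold). The fold in the authors' deposited table was 6.37 (82.6-fold). Members at least 2-fold higher were 1, and 4 on the spike-in scale or at a threshold of 1.5-fold. Other pathway genes at least 2-fold higher were 2, against 1 with normexp, 3 without a filter and 12 on the spike-in scale. At thresholds of 1.5-fold and 4-fold they were 7 and 0. Those 2-fold lower were 0, against 1 with the 75th percentile over detected spots only, 2 with the looser filter, without a filter and in the authors' deposited table, and 3 at 1.5-fold. Normexp brought Inha to -0.73 and Bmpr1b to 0.68 (1.60-fold), and the spike-in scale brought Inha to -0.85, all within 2-fold. The cause of these shifts was not tested.

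For 36 named genes, with Gdf11 left out, and 10 alternatives, 283 of 360 values stayed within the spot noise and 77 moved by more. The spike-in scale moved all 36, because the shift it gives to all genes is larger than the largest spot noise of 0.25. These 36 moves are among the 77 and do not describe single genes. A call reversed from 2-fold in one direction to 2-fold in the other in 0 of the 360 values. Signs did change, as for Acvr1b (-0.36 to 0.16) and Dcn (-0.23 to 0.29) on the spike-in scale and Gdf5 (0.48 to -0.07) without a filter. Mstn, Smad3 and Smad7 passed 2-fold on the spike-in scale, at 1.42, 1.19 and 1.12. Among all genes past 2-fold, 56.6% were higher in N2ICD, against 97.3% on the spike-in scale and 46.3% without a filter. Genes below the lowest signal called well above background, such as Inhba, have no order here. No paired analysis was possible because each group has 1 array.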

Other observations

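The bone morphogenetic protein (BMP) arm, which signals through Smad1, Smad5 and Smad9 and acts in muscle against the myostatin arm, held values on both sides of 0. Of its 22 genes, 17 were measured on both arrays, 7 above and 10 below 0, with a median of -0.03. Bmpr1b, a type I BMP receptor, had signals of 47.4 and 149 and was 2.78-fold higher in the N2ICD array, and its other probe was measured in N2ICD alone, with signals of 11.4 and 51.8. Nog, the secreted BMP trap noggin, had signals of 90.9 and 51.3 and lay just short of 2-fold lower, beside a spot noise of 0.25. With normexp background correction Bmpr1b was at 0.68, or 1.60-fold higher, and Nog at -0.49. The more common type I receptors Bmpr1a and Acvr1 were at 0.16 and -0.03, and the type II receptor Bmpr2 had signals of 561 and 879, a difference of 0.47.

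Of the arm's ligands, none measured on both arrays passed 2-fold. Gdf5, which acts in joints and in denervated muscle, was at 0.48 with signals of 44.5 and 70.1. Another Gdf5 probe was not well above background, and without a filter Gdf5 was at -0.07. Bmp4 was at -0.06 with signals of 448 and 485. Id1 and Id3, which BMP signalling induces, were at -0.50 and -0.30, with signals of 1244 and 994 for Id1 and 1109 and 1015 for Id3. Fbxo30, a ubiquitin ligase that BMP signalling holds down in muscle, was at 0.17. The ligand Bmp7 was measured in control alone, with signals of 36.4 and 9.23, and was at least 1.51-fold lower, so its difference may be larger. The BMP trap Chrdl1 was measured in N2ICD alone and was at least 1.21-fold higher. Gdf6, Smad9 and Grem1 were not well above background on either array. Bmpr1a, Acvr1, Bmpr2, Bmp4, Id3, Fbxo30, Bmp7, Chrdl1, Gdf6, Smad9 and Grem1 were chosen after their values were seen.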
